A study of Mus musculus with 15 samples.

Results

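The cytoplasmic ribosomal protein (RP) genes encode the protein subunits of the ribosome, and 76 of them were found among 21887 protein-coding genes. Members were taken by symbol from a RefSeq table of the mouse assembly GRCm38 (mm10), as Rpl or Rps followed by a number, together with Rplp0, Rplp1, Rplp2 and Rpsa. They comprised 46 genes of the large (60S) subunit and 30 of the small (40S) subunit on 19 chromosomes. No measured value entered the choice. The genes are short, with spans of 982 to 11774 bp and a median of 3169.5 bp, against 22862 bp for all protein-coding genes with the promoter mark H3K4me3.

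Each ribosome carries its proteins in near equal amounts, so RP genes are transcribed strongly and together in growing cells. Their promoters are compact, start at a run of pyrimidines and often hold sites for YY1 or ETS factors, and their mRNAs (TOP mRNAs) share a pyrimidine tract at the 5' end through which mTOR signalling sets their translation. In blood, shortage of single RPs stabilises p53 and blocks red cell formation, the basis of Diamond-Blackfan anaemia in humans. YY1 is a zinc finger transcription factor that binds near transcription start sites, and SMC3 is a core subunit of cohesin, the ring complex that holds DNA loops and sister chromatids.

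The data came from CUT&Tag, in which a transposase tethered by an antibody marks the DNA around the antibody's target, in HPC-7 cells, a mouse haematopoietic progenitor line made from embryonic stem cells. The groups were SMC3 in cells with an shRNA against YY1 (shYY1), and SMC3, YY1 and H3K4me3 in control cells, with 3 libraries each. The control cells are titled WT, while their descriptions carry the name of a luciferase shRNA, so both arms may carry an shRNA. About 150000 cells went into each reaction, and the 3 IgG libraries were not analysed here. The labels' protocol calls the replicates biological. It names 1 Abcam antibody for SMC3, but the descriptions give that maker only in SMC3 library 1 of shYY1 cells and library 1 of control cells. YY1 was not profiled in shYY1 cells in the files used here, so the depth of the knockdown is not known.

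Of 12 haematopoietic progenitor markers, 12 had H3K4me3 in at least 2 of 3 libraries, against 0 of 6 pluripotent, 0 of 3 liver, 0 of 2 muscle and 0 of 2 lymphoid markers; of 3 neural markers only Pax6 had it. The lists held 2631 to 3213 peaks for shYY1 SMC3, 2061 to 4595 for control SMC3, 3750 to 10699 for YY1 and 16763 to 17895 for H3K4me3. They give positions only, without scores or read counts, so sequencing depth is unknown and no level of binding can be read. The third YY1 library and the third control SMC3 library had the fewest peaks of their groups.

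A gene was said to have a target in a library when at least 1 bp of a peak lay inside its span or within 2500 bp of either end. It was called reproducible when this held in at least 2 of 3 libraries. Every RP gene had H3K4me3 in 3 of 3 libraries. The 76 of 76 members compare with 53.2% of all protein-coding genes, and the 11645 genes so marked are the background for what follows. Here and below, the length at a gene is that of the longest peak in its window. Windows of other marked genes are mostly wider, as their spans are longer, and the effect of this on lengths was not tested. The H3K4me3 peaks of RP genes were about as long within their lists as those of other marked genes. Their median length percentile was 74.9, 75.5 and 71.0 in the 3 libraries, against 70.6, 72.6 and 71.7.

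YY1 was reproducible at 64 of 76 RP genes (84.2%), against 64.8% of the genes with H3K4me3. It was found at 66, 68 and 37 RP genes in the 3 libraries. These are 86.8%, 89.5% and 48.7% of RP genes, against 67.1%, 75.1% and 34.3% of the genes with H3K4me3. The share was thus higher for RP genes in each of the 3 libraries. YY1 was present in 3 of 3 libraries at 37 RP genes (48.7%), against 33.6% of the genes with H3K4me3. Both subunits took part: 38 of 46 genes of the 60S subunit and 26 of 30 of the 40S subunit had reproducible YY1. The count of 64 fell to 37 when the first or the second YY1 library was left out and a peak was required in both remaining lists.

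**Figure D1:**
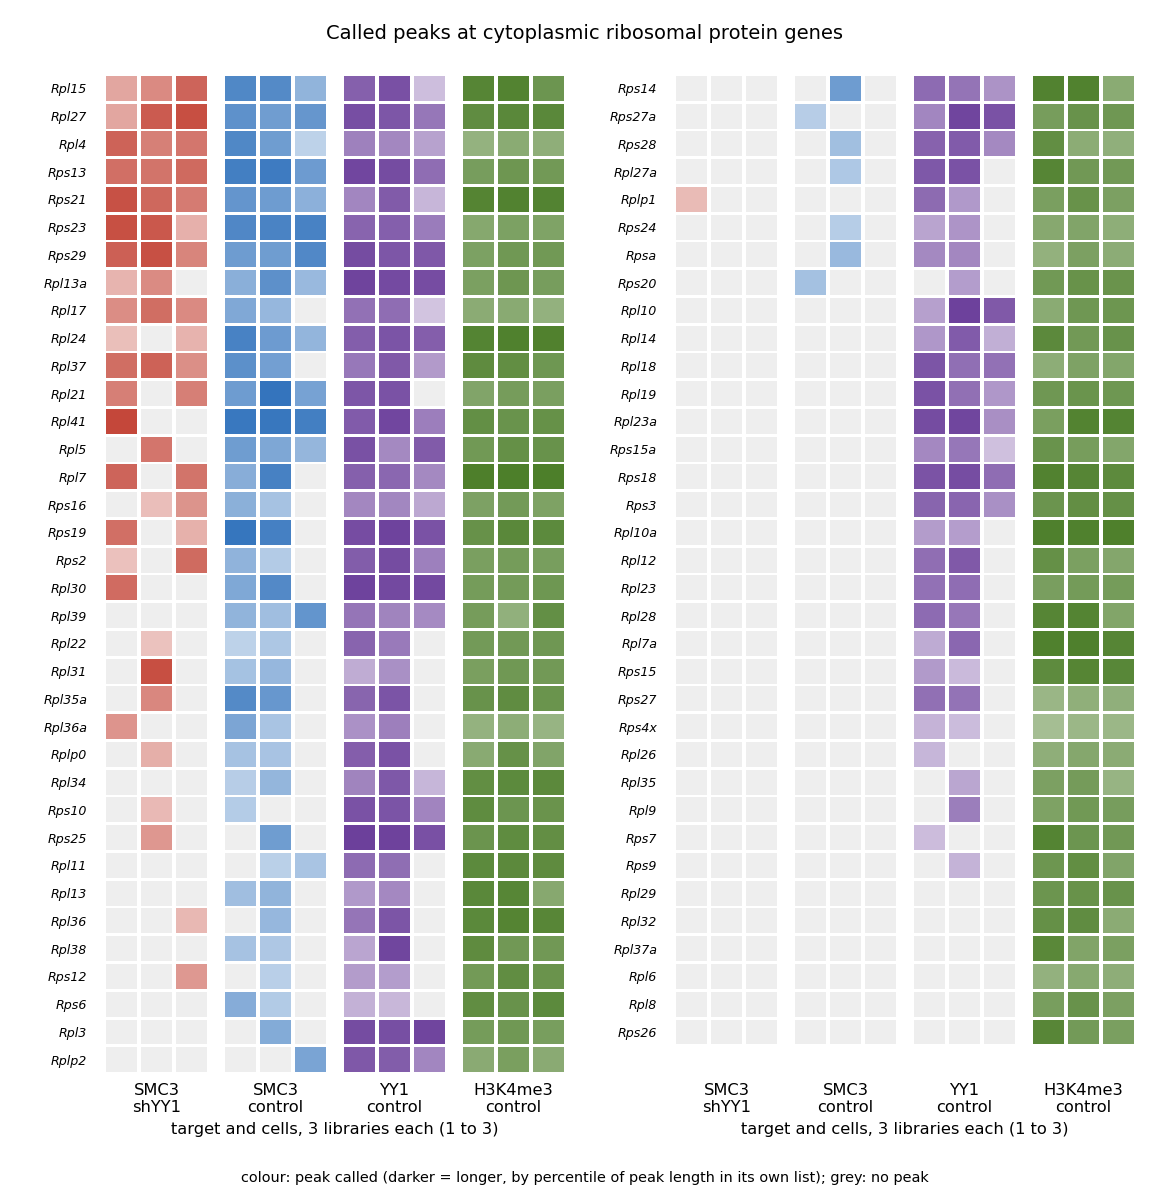
Each row is 1 of 71 RP genes (5 are not drawn) and each column a library, grouped as shYY1 SMC3, control SMC3, YY1 and H3K4me3 (3 libraries each); colour marks a called peak, darker for a longer one by length percentile in its own list, and grey marks none. All 71 genes are filled for H3K4me3 and 59 in at least 2 libraries for YY1, while SMC3 calls concentrate in the upper part of the left panel because genes are ordered by their number of SMC3 libraries.

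Members without any YY1 peak were few. Rpl6, Rpl8, Rpl29, Rpl32, Rpl37a and Rps26 had none in 3 libraries, 6 of 76 members against 21.9% of the genes with H3K4me3. Rpl8 lies near the catalytic centre of the large subunit, and Rps26 contacts the mRNA where it leaves the small subunit and is mutated in human Diamond-Blackfan anaemia. H3K4me3 was present at all of these, with peaks of 1547, 932 and 896 bp at Rps26 and 748, 722 and 704 bp at Rpl6. SMC3 was absent from all 6 in every library of both arms. Another 6 members, Rpl9, Rpl26, Rpl35, Rps7, Rps9 and Rps20, had YY1 in 1 library only.

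The longest YY1 peaks, by mean length percentile over the libraries with a peak, lay at Rps25, Rpl30, Rpl13a, Rpl3, Rps19, Rps29, Rpl21, Rpl27a, Rps13 and Rplp0. Rps25, a 40S protein needed for initiation on some viral internal ribosome entry sites, had YY1 peaks of 806, 884 and 547 bp. Rpl30, whose yeast orthologue binds its own transcript, had 729, 724 and 614 bp. The values at Rpl13a, a 60S protein that in human myeloid cells also silences inflammatory mRNAs, were 699, 707 and 577 bp. Rpl3, a large protein that reaches the catalytic centre of the ribosome, had 586, 645 and 693 bp. All of these exceeded the median YY1 peak of 314, 365 and 321 bp.

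Rps19, the gene most often mutated in human Diamond-Blackfan anaemia, had YY1 peaks of 578, 861 and 535 bp. Rps29, a zinc-binding protein of the 40S head, had 580, 580 and 484 bp. Rps13, a 40S protein at the interface with the large subunit, had 656, 684 and 391 bp. Rpl21, Rpl27a and Rplp0 had no peak in the third library, so their rank rests on 2 libraries. Over all RP genes the median length percentile of YY1 peaks was 65.8, 69.2 and 50.6, against 59.7, 63.6 and 54.1 at other genes with H3K4me3. The RP median was the higher one in the first and second libraries and the lower one in the third. These are again longest peaks, from mostly wider windows at the other genes.

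Annotated starts and promoter sequences were found for 56 of 76 members in a RefSeq table of GRCm38.p6 that covers 250 bp before to 50 bp after each start. The others included Rpl3, Rpl7, Rpl8, Rpl17, Rpl21, Rpl23a, Rpl29, Rpl30, Rpl32, Rpl36, Rplp1, Rps14, Rps20, Rps27a and Rps29. Letters of the YY1 motif, AANATGGC on either strand, were present in 11 of these 56 RP promoters (19.6%). They were present in 10.3% of promoters of other genes with H3K4me3 and in 7.46% of all promoters. The 11 genes were Rpl10, Rpl13a, Rpl22, Rpl24, Rpl28, Rpl34, Rpl35a, Rps15a, Rps19, Rps27 and Rps28. Each had reproducible YY1, as did 37 of the 45 RP genes without the letters (82.2%). At other genes with H3K4me3, YY1 was reproducible at 82.2% of those with the letters and 63.9% of those without. The longer form AAGATGGCG, which contains the shorter one, was present at Rpl13a, Rpl35a and Rps27, 5.36% of the RP promoters and 2.14% of all promoters.

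The following promoters hold the YY1 letters and a YY1 peak in at least 2 libraries. All 11 genes with the letters do, and those printed are examples. Each runs 5' to 3' on the gene's strand from 100 bp before to 30 bp into the annotated start, with the YY1 letters in capitals.
Rps27 (chr3:90213619-90213748, minus strand): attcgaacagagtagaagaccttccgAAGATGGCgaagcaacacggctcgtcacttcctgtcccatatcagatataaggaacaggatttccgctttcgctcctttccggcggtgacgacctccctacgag
Rpl28 (chr7:4792865-4792994, plus strand): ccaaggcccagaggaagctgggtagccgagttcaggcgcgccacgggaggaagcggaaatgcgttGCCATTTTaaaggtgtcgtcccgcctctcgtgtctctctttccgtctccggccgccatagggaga
Rps28 (chr17:33824533-33824662, minus strand): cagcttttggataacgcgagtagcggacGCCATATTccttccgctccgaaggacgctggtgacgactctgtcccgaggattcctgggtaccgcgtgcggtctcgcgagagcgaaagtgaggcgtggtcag
Rps19 (chr7:24884492-24884621, plus strand): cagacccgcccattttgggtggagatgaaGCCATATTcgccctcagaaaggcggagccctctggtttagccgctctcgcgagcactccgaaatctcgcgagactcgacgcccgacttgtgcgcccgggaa
Rpl34 (chr3:130730369-130730498, minus strand): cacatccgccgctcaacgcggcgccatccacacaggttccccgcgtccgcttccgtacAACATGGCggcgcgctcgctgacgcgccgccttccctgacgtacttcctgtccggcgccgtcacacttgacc
The capitals begin 74 bp before the start in Rps27, 35 bp in Rpl28, 72 bp in Rps28, 71 bp in Rps19 and 42 bp in Rpl34. YY1 summits, the highest points of the peaks, lay close to them in several libraries. At Rps27, a 40S zinc finger protein, both summits were 18.5 bp from the centre of the letters. At Rps28, a 40S protein mutated in human Diamond-Blackfan anaemia, the 3 summits were 38.5, 39.5 and 56.5 bp away. The distances at Rps19 were 128.5, 83.5 and 81.5 bp. Over the 11 genes the median distance was 66.5 and 83.5 bp in the first and second libraries and 92.5 bp over the 7 with a peak in the third. Within 100 bp lay 6 of 11, 6 of 11 and 5 of 7 summits. Where a gene had several sites or summits, the nearest pair was taken. The letters were searched only near starts, where YY1 summits also gather, so short distances alone show no link. The same share was not computed for other genes. Others were far: both summits at Rpl22 were 1532.5 bp away, and those at Rpl24 186.5, 376.5 and 7489.5 bp.

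Other promoters are shown for contrast. Rpl27 and Rps13 had SMC3 in all 6 SMC3 libraries at their own start, Rpl39 had it in 0 shYY1 and 3 control libraries, and Rpl6 and Rpl37a had no YY1 peak. None of these 5 holds AANATGGC within 250 bp before to 50 bp after its annotated starts. Capitals mark CTTCC within 20 bp of the start in Rps13 and Rpl37a, and the ETS core CCGGAAG or its reverse complement in Rpl39 and Rpl6. The CTTCC begins at base 13 after the annotated start in Rps13 and 16 bp before it in Rpl37a, so neither lies at the start itself. Rpl27 has neither motif and is printed without capitals.
Rpl27 (chr11:101442145-101442274, plus strand): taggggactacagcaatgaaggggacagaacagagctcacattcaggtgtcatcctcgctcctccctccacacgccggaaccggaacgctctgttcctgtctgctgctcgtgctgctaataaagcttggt
Rps13 (chr7:116334161-116334290, minus strand): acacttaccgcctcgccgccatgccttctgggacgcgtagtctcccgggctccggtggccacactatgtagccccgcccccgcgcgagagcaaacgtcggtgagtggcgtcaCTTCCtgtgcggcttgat
Rpl39 (chrX:37085193-37085322, minus strand): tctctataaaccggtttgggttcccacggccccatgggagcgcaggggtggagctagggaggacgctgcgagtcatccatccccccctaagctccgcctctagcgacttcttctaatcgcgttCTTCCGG
Rpl6 (chr5:121204401-121204530, plus strand): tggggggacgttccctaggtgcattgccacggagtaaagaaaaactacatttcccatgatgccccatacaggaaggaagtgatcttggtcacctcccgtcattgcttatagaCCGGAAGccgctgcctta
Rpl37a (chr1:72711160-72711289, plus strand): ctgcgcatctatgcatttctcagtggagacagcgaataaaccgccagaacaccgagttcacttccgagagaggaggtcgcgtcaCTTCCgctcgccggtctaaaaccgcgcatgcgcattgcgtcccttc
The ETS core was present on either strand in 23 of the 56 RP promoters (41.1%), against 20.9% of other genes with H3K4me3 and 12.9% of all promoters. Among these 23, 18 had reproducible YY1 (78.3%), and among the 33 without the ETS core, 30 did (90.9%). At other genes with H3K4me3 the direction was opposite, with 70.9% and 64.4%. CTTTCC or CTTCC within 20 bp of the start, on the gene's strand only, was present in 22 RP promoters (39.3%), against 15.6% of other genes with H3K4me3 and 12.8% of all promoters. CTTCC also forms part of the reverse complement of the ETS core, CTTCCGG, so the ETS and TOP counts overlap. The window takes in letters upstream of the annotated start, so a match need not be a TOP tract of the mRNA. Reproducible YY1 stood at 19 of these 22 RP genes and at 29 of the other 34. At other genes with H3K4me3 the shares were 63.3% with these letters and 66.3% without. These matches describe letters in a window and show no binding.

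YY1 summits at RP genes gathered just upstream of the start. The median summit position was -39, -37 and -124 bp in the 3 libraries, and -41, -24 and -44 bp at other genes with H3K4me3. Within 100 bp of a start lay 68.0%, 62.7% and 29.6% of the RP summits, against 44.6%, 42.5% and 33.5%. The third library, with the shortest list, went the other way from the first and second. SMC3 summits also lay mostly upstream, with medians of -32, -79 and -64.5 bp in shYY1 libraries and -63, -32 and -92 bp in control libraries. H3K4me3 summits had medians of -4, 5 and 10.5 bp.

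**Figure D2:**
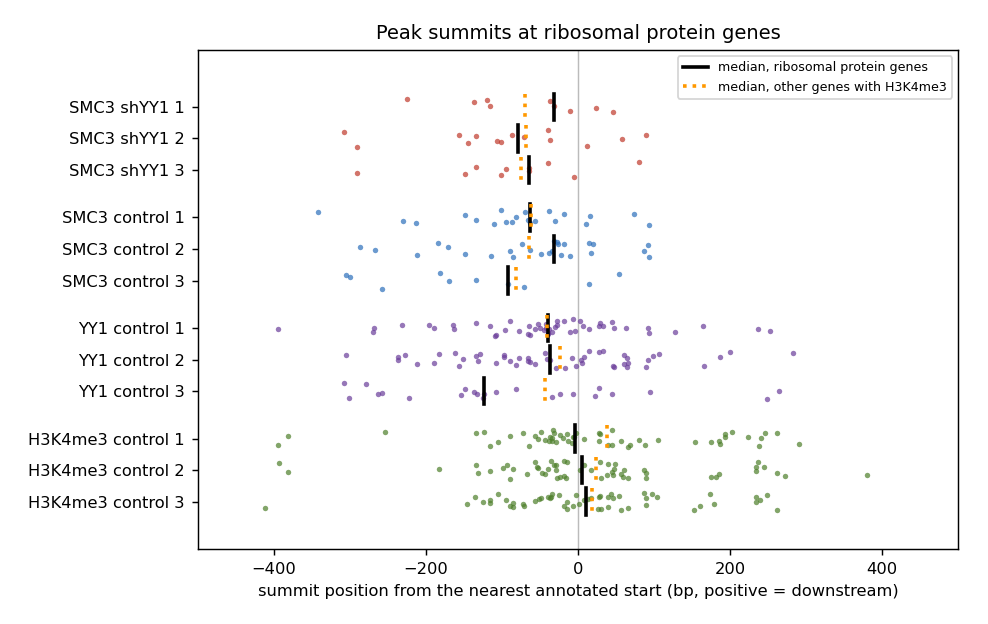
The horizontal axis gives the distance in bp of the peak summit nearest to an annotated start (1 per RP gene, positive downstream), and each line of points is a library, with SMC3 in shYY1 cells above SMC3, YY1 and H3K4me3 in control cells. Black bars mark the RP median and dotted bars the median of other genes with H3K4me3, both over all summits, including those beyond the axis, which are not drawn; the RP medians for YY1 were -39, -37 and -124 bp.

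SMC3 was reproducible at 17 RP genes in shYY1 cells (22.4%), against 24.7% of the genes with H3K4me3. In control cells it was reproducible at 32 RP genes (42.1%), against 32.6%. The RP share was therefore below the background in shYY1 cells and above it in control cells. All 17 of the shYY1 genes were among the 32 of control cells, against 93.5% of such genes over the whole background. All 32 had reproducible YY1, as did 3729 of 3796 such genes over the background. Both counts are thus near the background. Without reproducible YY1, control SMC3 was called at 0.575% of the genes with H3K4me3. The reproducible SMC3 regions at RP genes, 16 in shYY1 and 32 in control cells, all overlapped regions of YY1 and of H3K4me3. For this overlap a YY1 or H3K4me3 region of 1 library was enough. The same share over other genes was not computed, so no trait of RP genes can be read from it. In shYY1 cells Rps19 had separate regions of 1 library each, so it is among the 17 genes but holds none of the 16 regions. No SMC3 peak in any of the 6 libraries was found at 30 RP genes (39.5%), against 51.1%. Without single libraries the counts were 11 to 15 in shYY1 cells, with 11 when the first or the third was left out, and 13 to 31 in control cells, with 14 without the first and 13 without the second.

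Per library, SMC3 was found at 20, 19 and 18 RP genes in shYY1 cells and at 34, 41 and 15 in control cells. The control libraries spread on both sides of the shYY1 libraries, and the third control library, with 2061 peaks, was the lowest of all 6. The means were 19 ± 1 in shYY1 cells and 30 ± 13.5 in control cells (SD, n = 3 each). The difference of -11 genes did not exceed the spread between libraries (exact two-sided permutation p = 0.4, adjusted p = 0.5 over 5 comparisons). With 20 possible assignments of libraries the smallest possible p is 0.1, so no comparison here could reach 0.05. The difference was -18.5 without the third control library and -5.5 without the second.

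The control SMC3 lists ranked alike by number of peaks and by number of RP genes, while the shYY1 list with the fewest peaks had the most RP genes. Each library was therefore also read against its own background. The shYY1 libraries had SMC3 at 26.3%, 25% and 23.7% of RP genes, against 23.6%, 27.3% and 26.5% of the genes with H3K4me3. The control libraries had it at 44.7%, 53.9% and 19.7% of RP genes, against 38.3%, 39.0% and 18.3%. As a log2 ratio of the shares this gave 0.16, -0.13 and -0.16 in shYY1 cells and 0.23, 0.47 and 0.11 in control cells. The means were -0.05 ± 0.17 and 0.27 ± 0.18 (SD, n = 3 each), a difference of -0.31 (exact permutation p = 0.2, adjusted p = 0.5). The groups overlapped in 1 place, where the first shYY1 library exceeded the third control library.

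**Figure D3:**
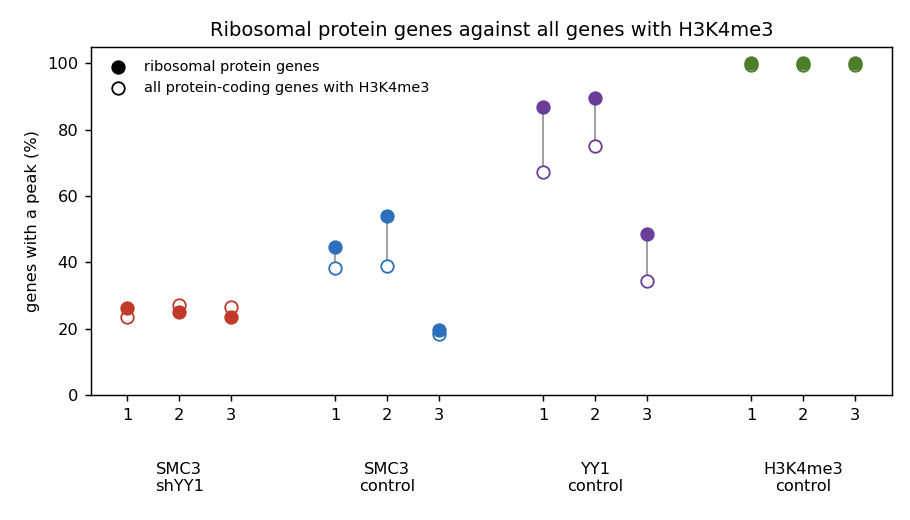
The vertical axis is the percentage of genes with a peak in each library, shown for the 76 RP genes (filled) and for all protein-coding genes with reproducible H3K4me3 (open), with SMC3 in shYY1 cells left of SMC3, YY1 and H3K4me3 in control cells. Filled points lie above open ones in all 3 YY1 and all 3 control SMC3 libraries, and in 1 of the 3 shYY1 libraries.

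The gap was smaller among the longest peaks. When the 2061 longest peaks of every list were used, SMC3 was found at 14, 14 and 13 RP genes in shYY1 cells and at 15, 12 and 15 in control cells. The difference was then -0.33 genes, and the difference in log2 share ratio was 0.0047, with the sign turned round. Reproducible SMC3 was left at 12 RP genes in shYY1 cells and 15 in control cells under this choice, which for the reproducible counts was made after seeing the data. Control SMC3 peaks at RP genes were short for their lists, with median length percentiles of 43.0, 40.4 and 47.1, against 55.7, 56.1 and 52.4 at other genes with H3K4me3. In shYY1 cells the RP medians were 60.9, 48.3 and 47.5, against 53.1, 53.9 and 53.5. Both comparisons take the longest peak per window, and windows of other genes are mostly wider, so the sets are not measured alike.

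Of the 32 RP genes with reproducible control SMC3, 17 (53.1%) also had it in shYY1 cells, against 70.8% of such genes over the whole background. The other 15, or 19.7% of all RP genes, had it in control cells only, against 9.51% of the genes with H3K4me3. No RP gene had it in shYY1 cells only, against 1.60%. In the control lists the SMC3 peaks of the 15 had median length percentiles of 26.5 and 21.3 in the first and second libraries, against 61.6 and 55.7 for the 17. The third control library went the other way, with 45.7 over the 4 of the 15 with a peak and 41.8 over the 10 of the 17. Other genes with H3K4me3 split in the same direction in the first and second libraries, so the split there is not particular to RP genes. Those with the call in control cells only stood at 35.7 and 36.6, and those with it in both arms at 71.5 and 70.7. In the third library they kept this direction, at 25.8 and 57.0, unlike the few RP genes with a peak there.

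The number of YY1 libraries went with SMC3 at RP genes in both arms. Of the 37 members with YY1 in 3 libraries, 16 (43.2%) had reproducible SMC3 in shYY1 cells and 22 (59.5%) in control cells. For all genes with H3K4me3 and as many YY1 libraries the shares were 57.5% and 69.7%. Of the 27 members with YY1 in 2 libraries, 1 (3.70%) and 10 (37.0%) had it, against 16.4% and 27.6%. None of the 12 with YY1 in 0 or 1 library had it in either arm, near the background shares of 0.609% in shYY1 cells and 1.63% in control cells. Of the 15 genes with reproducible SMC3 in control cells only, 6 had YY1 in 3 libraries, and of the 17 with it in both arms, 16 did. The direction was the same at other genes with H3K4me3, with 571 of 1093 and 2136 of 2671. How far shared depth or open chromatin sets this relation was not tested.

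**Figure D4:**
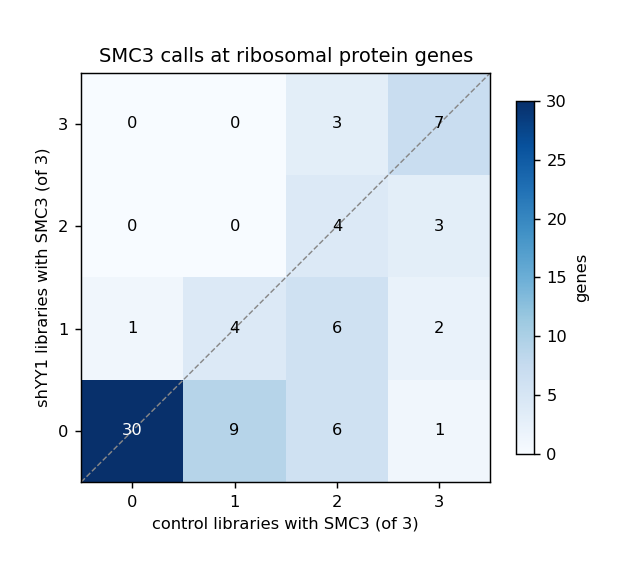
Each cell gives the number of RP genes (colour scale, genes) with SMC3 in 0 to 3 shYY1 libraries on the vertical axis and 0 to 3 control libraries on the horizontal axis; the dashed line marks equal numbers. Of the 76 genes, 30 had no SMC3 peak and 7 had it in all 6 libraries, while 9 lie at least 2 libraries to the right of the line and 0 at least 2 libraries above it.

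SMC3 was present in all 6 libraries at 7 RP genes (9.21%), against 12.8% of the genes with H3K4me3. These were Rpl4, Rpl15, Rpl27, Rps13, Rps21, Rps23 and Rps29. Rps13 had SMC3 peaks of 289, 250 and 282 bp in shYY1 cells and 398, 420 and 265 bp in control cells. The merged shYY1 region (chr7:116334217-116334505) lay just upstream of the gene start and inside the control region (chr7:116334172-116334591), which covers the start. Rpl27, mutated in rare human Diamond-Blackfan anaemia, had 184, 314 and 381 bp in shYY1 cells and 300, 258 and 280 bp in control cells. Here the values of both arms overlapped.

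Rps23, which lines the decoding centre of the small subunit, had peaks of 402, 327 and 154 bp in shYY1 cells and 345, 359 and 369 bp in control cells. Rps29 had 332, 356 and 226 bp in shYY1 cells and 262, 260 and 337 bp in control cells. The values for Rpl15, a 60S protein mutated in rare human Diamond-Blackfan anaemia, were 184, 210 and 297 bp in shYY1 cells and 343, 326 and 208 bp in control cells. Rps21 had 396, 279 and 243 bp in shYY1 cells and 284, 261 and 216 bp in control cells. At Rpl4, a protein of the peptide exit tunnel, the values were 323, 227 and 254 bp in shYY1 cells and 344, 259 and 153 bp in control cells, all at a region past the gene's end (chr9:64179248-64179591 in control cells).

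Lengths are given here because the lists hold no other size. Over these 7 genes the median length percentile per library was 69.7, 66.5 and 55.8 in shYY1 cells and 75.2, 55.0 and 55.6 in control cells. The means differed by 2.03 percentile points, which did not exceed the spread (exact permutation p = 0.8, adjusted p = 0.8). The sign turned round when the second control library (-1.44) or the first (-0.83) or second (-3.42) shYY1 library was left out.

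SMC3 was present in at least 2 fewer shYY1 than control libraries at 9 RP genes (11.8%), against 5.0% of the genes with H3K4me3. It was present in at least 2 more shYY1 libraries at 0 RP genes, against 0.489%. The 9 included Rpl5, Rpl11, Rpl13, Rpl34, Rpl38, Rpl39, Rpl41 and Rps6. Rpl39, a very small protein of the peptide exit tunnel, was the only RP gene with SMC3 in 0 of 3 shYY1 and 3 of 3 control libraries, against 0.326% of the genes with H3K4me3. Its control peaks were 197, 173 and 286 bp long (merged region chrX:37085287-37085629), beside YY1 peaks of 354, 354 and 294 bp.

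Rpl5 and Rpl11, which with 5S rRNA bind Mdm2 and stabilise p53 when ribosome assembly fails, were both in this group. Rpl5 had 1 shYY1 peak of 247 bp, in the second library, and control peaks of 260, 230 and 204 bp. Rpl11 had no shYY1 peak, and control peaks of 133 and 178 bp in the second library and the third. Rpl41, the smallest RP, had 1 shYY1 peak of 462 bp and control peaks of 462, 467 and 393 bp. This SMC3 region (chr10:128547479-128547950 in control cells) lay past the end of Rpl41 and within reach of its neighbour Zc3h10.

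The other members of this group had SMC3 in 0 shYY1 libraries and 2 control libraries. Rps6, the 40S protein phosphorylated by S6 kinase, had control peaks of 216 and 143 bp. At Rpl38, needed in mouse embryos for translation of a set of Hox mRNAs, the control peaks were 161 and 151 bp long. Rpl34 had 138 and 192 bp, and Rpl13 172 and 197 bp, all below the median control SMC3 peak of 245, 246 and 250 bp. With the 2061 longest peaks of each list, 2 RP genes had at least 2 fewer shYY1 libraries (Rpl24 and Rpl41), and 2 had at least 2 more (Rpl17 and Rpl37). The SMC3 peaks of Rpl24 and Rpl17 lay outside these genes, in the windows of Zbtb11 and BC031181.

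Of the 15 genes with reproducible SMC3 in control cells only, 14 were among the 46 of the 60S subunit and 1, Rps6, among the 30 of the 40S subunit, beside 9.51% of all genes with H3K4me3. At genes of the 60S subunit the call was present at 9 in shYY1 cells (19.6%) and at 23 in control cells (50%). At genes of the 40S subunit it was present at 8 in shYY1 cells (26.7%) and at 9 in control cells (30%), near the shares of 24.7% and 32.6% over all genes with H3K4me3. Per library, SMC3 stood at 13, 11 and 9 genes of the 60S subunit in shYY1 cells and at 22, 26 and 11 in control cells. At genes of the 40S subunit it stood at 7, 8 and 9 in shYY1 cells and 12, 15 and 4 in control cells. This split was looked at after the values were seen and was not tested.

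Among the acidic stalk proteins, which recruit elongation factors, Rplp0, Rplp1 and Rplp2 all had reproducible YY1. None had reproducible SMC3 in shYY1 cells, and 1, Rplp0, had it in control cells. Of 18 members whose human orthologues are mutated in Diamond-Blackfan anaemia, 14 had reproducible YY1, and SMC3 was reproducible at 4 in shYY1 cells and 8 in control cells. The shares of all genes with H3K4me3 are 64.8% for YY1, 24.7% for shYY1 SMC3 and 32.6% for control SMC3, and the 4 of 18 in shYY1 cells lie near theirs. Rps14, whose loss underlies the anaemia of human 5q- syndrome, and Rps27a, made as a ubiquitin fusion, had YY1 in 3 libraries each, and SMC3 in 0 shYY1 and 1 control library.

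A peak in the window need not be at the RP gene's own start. At 38 of 76 RP genes a peak was shared with the window of another protein-coding gene, and at 31 of the 70 with a YY1 peak the YY1 peak was shared. The shares over all genes with H3K4me3 were not computed, so whether this sharing is unusual is not known. Among the 56 members with annotated starts, summits within 1000 bp of a start gave reproducible YY1 at 48, against 62.5% of genes with H3K4me3 so placed. They gave SMC3 at 10 of 56 in shYY1 cells (17.9%), against 23.0%, and at 21 in control cells (37.5%), against 30%. Among the 56, the RP genes whose reproducible SMC3 was elsewhere were Rpl4, Rpl24, Rpl35a and Rpl41. Rpl17, without an annotated start here, had all its SMC3 peaks outside its span, in the window of BC031181. Rpl15, Rpl27, Rps13, Rps21 and Rps23 had SMC3 at their own start in all 6 libraries.

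In control cells YY1 was found at more RP genes than SMC3, with 66, 68 and 37 genes per library for YY1 and 34, 41 and 15 for SMC3. The means were 57 ± 17.3 and 30 ± 13.5 (SD, n = 3 each), a difference of 27 genes (exact permutation p = 0.2, adjusted p = 0.5). Both sets of lists overlapped in range, since the third YY1 library was below the second SMC3 library. Relative to all genes with H3K4me3, the log2 share ratios were 0.37, 0.25 and 0.51 for YY1 and 0.23, 0.47 and 0.11 for SMC3. They differed by 0.11 (exact permutation p = 0.4, adjusted p = 0.5). With the 2061 longest peaks per list the difference was 8.33 genes and 0.56 in log2 share ratio, each with p = 0.1 in the exact permutation test, the smallest possible. This comparison and the one of shYY1 with control cells use the same control SMC3 libraries.

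Genes that work with the RPs were read the same way, beside shares of 64.8% for YY1, 24.7% for shYY1 SMC3 and 32.6% for control SMC3 over all genes with H3K4me3. Fau and Rack1, which encode 40S proteins that the symbol rule misses, had YY1 in 2 and 3 libraries and SMC3 in 0 libraries of both arms. Of 7 RP paralogues found, 5 had H3K4me3 and 4 had YY1; SMC3 was reproducible at 0 in shYY1 cells and at 3 in control cells. Among 15 other genes of TOP mRNAs, among them the elongation factors and Pabpc1, all 15 had YY1, and SMC3 was reproducible at 10 in shYY1 and 10 in control cells. Among 30 genes of ribosome assembly, 29 had YY1, and SMC3 was reproducible at 10 in shYY1 and 17 in control cells. Of 9 genes of RNA polymerase I and its factors, which transcribe the rRNA, 5 had YY1, with SMC3 at 1 in shYY1 and 2 in control cells. Of 8 regulators, among them Myc, Mtor and Trp53, all had YY1, with SMC3 at 2 in each arm, near the shYY1 share.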

How the data were processed

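CUT&Tag peak lists of 12 libraries were used, 1 per library; the 3 IgG libraries were not analysed here. The deposited files hold other values than expression or counts: peak start, end, name and summit offset as positions in bp, with no score. The submitters' processing notes list mm10 as the build and MACS2 2.2.9.1, Picard 3.1.1, Bowtie2 2.5.1 and cutadapt 4.5 as tools; settings and the peak threshold were not given in the sources used here. Depth is unknown and the number of peaks limits what a list can show. Each list skips 49 to 99 numbers in its peak names.

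Peaks were assigned to genes of a RefSeq table (GRCm38) whose span, extended by 2500 bp, they overlapped by at least 1 bp. A call was reproducible in at least 2 of 3 libraries. Means were compared by an exact two-sided permutation test over 20 assignments with Benjamini-Hochberg adjustment over 5 comparisons. Peak length was ranked within its own list, and the longest peak in the window stood for the gene. Python 3.11.15, numpy 2.4.6, pandas 2.3.3 and matplotlib 3.10.9 were used. On simulated lists, 200 of 200 genes planted with a peak in every library of 1 group and none of the other were recovered. The planted genes lay far from others and no calls were missed. This checks the counting, not the power to find a loss of SMC3 in the real lists.

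Genes named in full were those without a YY1 peak, with SMC3 in all 6 libraries, with a difference of at least 2 libraries between arms, and the 10 with the highest mean YY1 length percentile; no member lacked H3K4me3 or had a YY1 or SMC3 region without it. Some genes that these rules select are not reported here. The symbol rule for the members used no measured value. This rule and the lists of other genes were fixed with earlier results of these data known. The alternatives were other windows, 3 of 3 libraries, longer peaks, equal numbers of the longest peaks, each library left out, the libraries named Abcam left out and a replicate block.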

Additional observations from a re-analysis of the deposited data

How the results depend on the processing

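The counts of RP genes with a reproducible call depended most on the rule. With a peak asked for in 3 of 3 libraries they were 37 for YY1, 10 for shYY1 SMC3 and 13 for control SMC3, and with only peaks at least as long as the median of their list 42, 9 and 14. With equal numbers of the longest peaks, control SMC3 was reproducible at 15 RP genes, an alternative chosen after seeing the data. Leaving out 1 library gave 37 to 64 for YY1, 11 to 15 for shYY1 SMC3 and 13 to 31 for control SMC3; H3K4me3 stayed at 76. Each of these rules leaves fewer peaks or libraries, and the cause was otherwise not tested.

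The difference between shYY1 and control cells in RP genes with SMC3 ranged from -18.5 to -5.5 with 1 library left out. The difference in log2 share ratio ranged from -0.41 to -0.21, was -0.39 with p = 0.1 (exact permutation) within 1000 bp of the gene ends, and turned to 0.0047 with equal numbers of the longest peaks. The length percentile difference ranged from -3.42 to 8.66, with the values -1.44, -0.83 and -3.42 below 0, and was -15.0 with equal numbers of the longest peaks, where 1 gene was left. YY1 minus SMC3 ranged from 19.5 to 37 genes and from 0.03 to 0.21 in log2 share ratio. Without the libraries named Abcam the 5 differences were -9.5, -0.43, 5.80, 29 and 0.09.

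Whether the replicate numbers pair the libraries is not known. Same-numbered shYY1 and control SMC3 libraries correlated at -0.04, 0.03 and -0.05 in their deviations over 11645 genes. Differently numbered ones ranged from -0.07 to 0.10. Same-numbered YY1 and control SMC3 libraries correlated at 0.07, 0.004 and 0.11, and differently numbered ones from -0.12 to 0.06. Correlations this weak, from 3 libraries per group, cannot show whether libraries were prepared in pairs. With the replicate block the differences stayed -11, -0.31, 2.03, 27 and 0.11, with exact permutation p of 0.5, 0.25, 0.75, 0.25 and 0.75, the smallest possible being 0.25.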
